A study of Mus musculus with 15 samples.

Results

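A group of 39 genes was lower in microglia 1 day after a single dose of the TREM2 antibody ATV:4D9 and higher 7 days after it, both relative to the control antibody ATV:RSV. The genes were chosen on these values. For each mouse, the counts of unique molecular identifiers (UMIs) of all its cells were added up per gene and expressed per 1000000 UMIs of that mouse (CPM), and log2(CPM + 1) was averaged over the 3 mice of each group. A gene was taken if its mean CPM over all 15 mice was at least 5, if day 1 minus ATV:RSV was -0.3 or lower and if day 7 minus ATV:RSV was 0.3 or higher. The 39 genes were drawn from 9178 genes past the CPM limit, after Apoe and all symbols starting with Rpl, Rps or mt- were set aside. Of the genes set aside, Apoe, Rps27 and Rps9 also met both limits.

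Male C57BL/6J mice aged 3.5 months with the hTfR KI genotype, in which the mouse transferrin receptor gene carries human sequence, were used in every group, controls included. Each mouse received 10 mg/kg once. ATV:4D9 carries its TREM2-binding arms on an Fc that also binds the transferrin receptor (the antibody transport vehicle, ATV), and ATV:RSV is its control with the same Fc. ATV:RSV mice were sampled 1 day after the dose, and ATV:4D9 mice 1, 7, 14 or 28 days after it. Each of these 5 groups had 3 mice, 1 from each of 3 batches named in the labels. Days 7, 14 and 28 had no control of the same day, so all of them were set against the same ATV:RSV mice, and a difference that comes with the day of sampling cannot be told apart from one that comes with the antibody. Cells were taken from cortex and hippocampus with CD45 beads.

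Microglia are the resident macrophages of the brain, and TREM2 is a lipid-sensing receptor on their surface that signals through the adaptor DAP12 and the kinase SYK. Several of the 39 genes are hosts of small nucleolar RNAs (snoRNAs), short RNAs that guide the chemical modification of ribosomal RNA and are cut from the introns of a longer transcript. The spliced remainder of such host RNAs often begins, like the messenger RNAs of ribosomal proteins, with a C followed by an uninterrupted run of pyrimidines (a 5′ terminal oligopyrimidine tract, TOP). Growth signals through mTOR control the translation of TOP messages, and host RNAs such as Gas5 are degraded by nonsense-mediated decay when they are translated.

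Sequences at the RefSeq start sites of 5 snoRNA hosts are shown because this first base and pyrimidine run define a TOP message, with 2 ribosomal protein genes called higher at day 14 that hold such a run for comparison. The sixth host, Epb41l4aos, is not shown. Each window holds 40 bases before and 20 bases from the start site in GRCm38.p6, read 5′ to 3′, and capitals mark the pyrimidine run from the first transcribed base where that base is a C.
Gas5, chr1:161035126-161035185, plus strand: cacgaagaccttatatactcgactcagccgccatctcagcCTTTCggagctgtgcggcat
Snhg8, chr3:123508317-123508376, minus strand: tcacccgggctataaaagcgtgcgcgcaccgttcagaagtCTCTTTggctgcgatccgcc
2410006H16Rik, chr11:62602837-62602896, plus strand: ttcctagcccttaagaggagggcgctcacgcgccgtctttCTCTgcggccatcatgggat
Zfas1, chr2:167062894-167062953, plus strand: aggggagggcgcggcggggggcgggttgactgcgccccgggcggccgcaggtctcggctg
Tpt1, chr14:75845216-75845275, plus strand: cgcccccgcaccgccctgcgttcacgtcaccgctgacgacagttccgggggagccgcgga
Rpl28, chr7:4792925-4792984, plus strand: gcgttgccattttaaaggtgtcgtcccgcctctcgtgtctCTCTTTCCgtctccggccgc
Rps15a, chr7:118116128-118116187, minus strand: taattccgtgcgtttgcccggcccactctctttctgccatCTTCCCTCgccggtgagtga
At these start sites Snhg8 had a run of 6 pyrimidines, Gas5 had 5 and 2410006H16Rik had 4, against 8 in Rpl28 and in Rps15a. Zfas1 and Tpt1 started with another base. The Gas5, Snhg8 and Tpt1 windows lie inside the annotated genes, so the annotated 5′ ends of these genes are not shown. Those ends are at 161034422 for Gas5, 123508404 for Snhg8 (minus strand) and 75845093 for Tpt1. Whether Tpt1 is a TOP message was not tested. Among the genes called higher at day 14, 5 held such a run, of 8 to 13 pyrimidines. Gas5 has a further RefSeq start whose first base is a G. A C followed by at least 4 more pyrimidines stood at a start site of 3 of the 28 genes with a promoter in the table (10.7%: Gas5, Snhg8 and the lincRNA Gm36738, which is no host), of 5 of the 39 genes with a promoter in the table among those called higher at day 14 (12.8%, Rpl28 and Rps15a included), of 2.93% of all genes past the CPM limit and of 3.01% of all genes of the table. This pattern was added after the values had been seen, and no match says only that these letters are not in this window.

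The libraries held 5667 to 7596 cells and 32341960 to 70307384 UMIs per mouse, 102043 cells in all. All 7 microglia markers were detected, at a summed 11685 to 18686 CPM per mouse. The 3 day 1 mice stood apart from the other 12 in depth, with a mean of 8877 to 9877 UMIs per cell against 5707 to 6843, and in the deposited clusters, with 87.3% to 93.5% of their cells in cluster 2 against 1.12% to 3.23%. Their summed microglia markers were 11685 to 13122 CPM against 15780 to 18686 in the other mice. Summed markers of T or NK cells were 62.2 to 68.6 CPM at day 1, 38.7 to 55.8 at day 7 and 2.20 to 42.2 in ATV:RSV. Of the other marker lists, the day 1 mice lay apart from the other 12 for monocytes (13.9 to 18.0 CPM against 3.59 to 11.9), border-associated macrophages (132 to 140.4 against 162 to 205), astrocytes (116 to 121 against 189.6 to 271), and oligodendrocytes and endothelial cells, both lower. The median percent of mitochondrial UMIs was 3.96% to 4.50% at day 1 and 3.11% to 4.04% in the others. The part of these in the results was not tested. In sums over cells, fewer cells that express a gene and less RNA of it per cell cannot be told apart.

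As the rule requires, all 39 genes were lower at day 1, by 0.31 to 2.32 log2 units with a median difference of -0.66. At day 7 they were higher by 0.30 to 1.33 log2 units with a median of 0.37. The highest day 7 value was that of S100a9, which rested on 1 cell, and the next was 0.98 for Lag3. The median over the 9178 genes was -0.23 at day 1 and -0.09 at day 7. Being lower at day 1 was common, with 45.4% of the 9178 genes at -0.3 or lower, and being higher at day 7 was not, with 218 genes (2.38%) at 0.3 or higher. Every day 1 mouse lay below every ATV:RSV mouse for 37 of the 39 genes, against 54.5% of the 9178 genes. Every day 7 mouse lay above every ATV:RSV mouse for 32, against 4.37%. These contrasts chose the genes, so the counts are given as a description. Mean CPM over the 15 mice ran from 5.20 to 4934 with a median of 22.6, and the fewest UMIs of any of the genes in a mouse was 19.

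**Figure D1:**
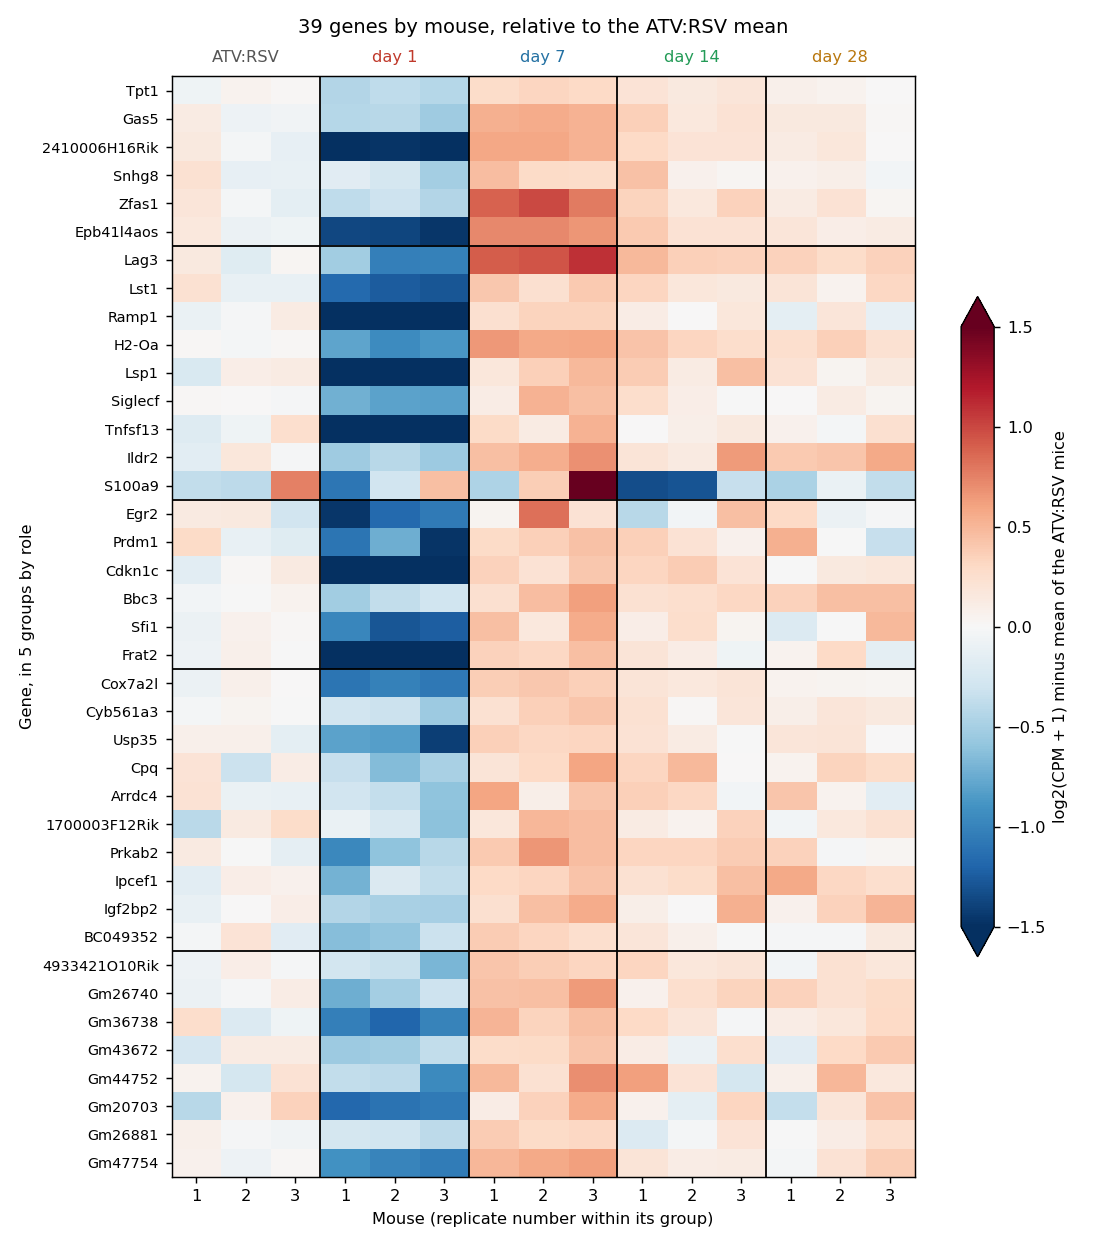
Heat map of the 39 genes (rows, in 5 groups by role) in the 15 mice (columns, by group and replicate), coloured by log2(CPM + 1) minus the mean of the 3 ATV:RSV mice, with colours saturating at 1.5 in both directions. The day 1 columns are blue and the day 7 columns red apart from S100a9 in day 1 replicate 3 and day 7 replicate 1, as the choice of genes requires, and most day 14 and day 28 cells are pale red.

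Genes nearest the limits were close to each other. Just inside the day 1 limit were S100a9 at -0.31, Snhg8 at -0.32 and 1700003F12Rik at -0.32. Just outside it, among genes past the day 7 limit, were Nr4a1 at -0.29, Bambi at -0.29 and Chst2 at -0.25. At the day 7 limit Tpt1 (0.30), Ramp1 (0.30) and Tnfsf13 (0.31) were inside and Tns1 (0.29), Bcl6 (0.29) and Fosl2 (0.28) outside.

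Long noncoding RNA genes made up 13 of the 39 (33.3%), against 293 of 9111 annotated genes past the CPM limit (3.22%). Genes with a snoRNA gene inside them on the same strand made up 6 of the 39 (15.4%), against 171 of 9111 (1.88%). The annotation tags the same 6 as hosts of a small RNA of any kind, against 854 of 9111 (9.37%). The rule used none of these properties. The host share depended on the scaling, since only 2410006H16Rik and Epb41l4aos of the 6 met the rule under TMM scaling, described below. The 45 noncoding hosts of small RNAs of any kind, 5 of the 39 included, were mixed, with medians of -0.30 at day 1 and -0.04 at day 7. At day 1, 22 of the 45 were at -0.3 or lower, against 45.4% of the 9178 genes. At day 7, 8 of the 45 were at 0.3 or higher, against 2.38%, while 26 were below 0. Among the 45, Snhg6 was 1.07 log2 units above ATV:RSV at day 1 and 0.40 at day 7, and Snhg1 was at 0.62 and -0.05.

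The 6 snoRNA hosts were Tpt1, Gas5, 2410006H16Rik, Snhg8, Zfas1 and Epb41l4aos. Tpt1 (chr14:75845093-75848525, plus strand; 1 snoRNA gene) encodes translationally controlled tumour protein, an abundant protein tied to growth. It stood at 4565, 4969.7 and 4852 CPM in the ATV:RSV mice, 3542, 3693 and 3567 at day 1, 5809, 5993 and 5902 at day 7, 5543, 5318 and 5423 at day 14 and 5053, 4953 and 4824 at day 28. The ATV:RSV and day 28 mice overlapped, and the day 1, day 7 and day 14 mice each formed a range apart from all other groups. Tpt1 has processed pseudogenes, and whether reads were shared with them was not tested.

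Gas5 (chr1:161034422-161038539, plus strand) is a noncoding host with 10 snoRNA genes inside it, named for its accumulation in growth-arrested cells. Its counts were 312, 272 and 275 CPM in the ATV:RSV mice, 211, 214 and 197 at day 1, 413, 419 and 412 at day 7, 366, 318 and 333 at day 14 and 316, 316 and 290.1 at day 28. All day 7 mice lay above all other mice, and day 28 overlapped ATV:RSV. 2410006H16Rik (chr11:62602877-62604807, plus strand; 3 snoRNA genes) showed the lowest day 1 values of the hosts relative to its control. Its values were 217, 190.5 and 179 CPM in the ATV:RSV mice, 66.9, 69.4 and 65.5 at day 1, 291, 291 and 281 at day 7, 240.4, 224 and 226 at day 14 and 212, 219 and 195 at day 28. The day 1 mice were close to each other and far below the rest.

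Zfas1 (chr2:167062934-167065862, plus strand; 3 snoRNA genes), which runs antisense to the start of Znfx1, had the largest day 7 difference of the hosts, at 0.89 log2 units. It was measured at 51.6, 44.4 and 41.1 CPM in the ATV:RSV mice, 34.7, 36.4 and 33.2 at day 1, 85.1, 91.2 and 79.0 at day 7, 57.5, 50.8 and 58.3 at day 14 and 49.8, 53.1 and 46.4 at day 28. Day 14 and day 28 overlapped ATV:RSV. Snhg8 (chr3:123507552-123508404, minus strand; 1 snoRNA gene) was at 116, 90.1 and 91.3 CPM in the ATV:RSV mice, 87.4, 81.9 and 68.5 at day 1, 136, 120.4 and 119 at day 7, 134, 103 and 100.2 at day 14 and 103, 104 and 95.5 at day 28. Its day 14 values were spread, with replicate 1 above the other day 14 mice and overlapping day 7, and Snhg8 lay close to the day 1 limit. Epb41l4aos (1 snoRNA gene) was at 32.7, 27.4 and 28.0 CPM in the ATV:RSV mice, 10.7, 10.7 and 10.0 at day 1, 48.9, 49.1 and 46.9 at day 7, 38.7, 34.2 and 34.2 at day 14 and 33.3, 31.5 and 31.9 at day 28. The mice of each ATV:4D9 group formed a separate range, and only day 28 overlapped ATV:RSV.

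**Figure D2:**
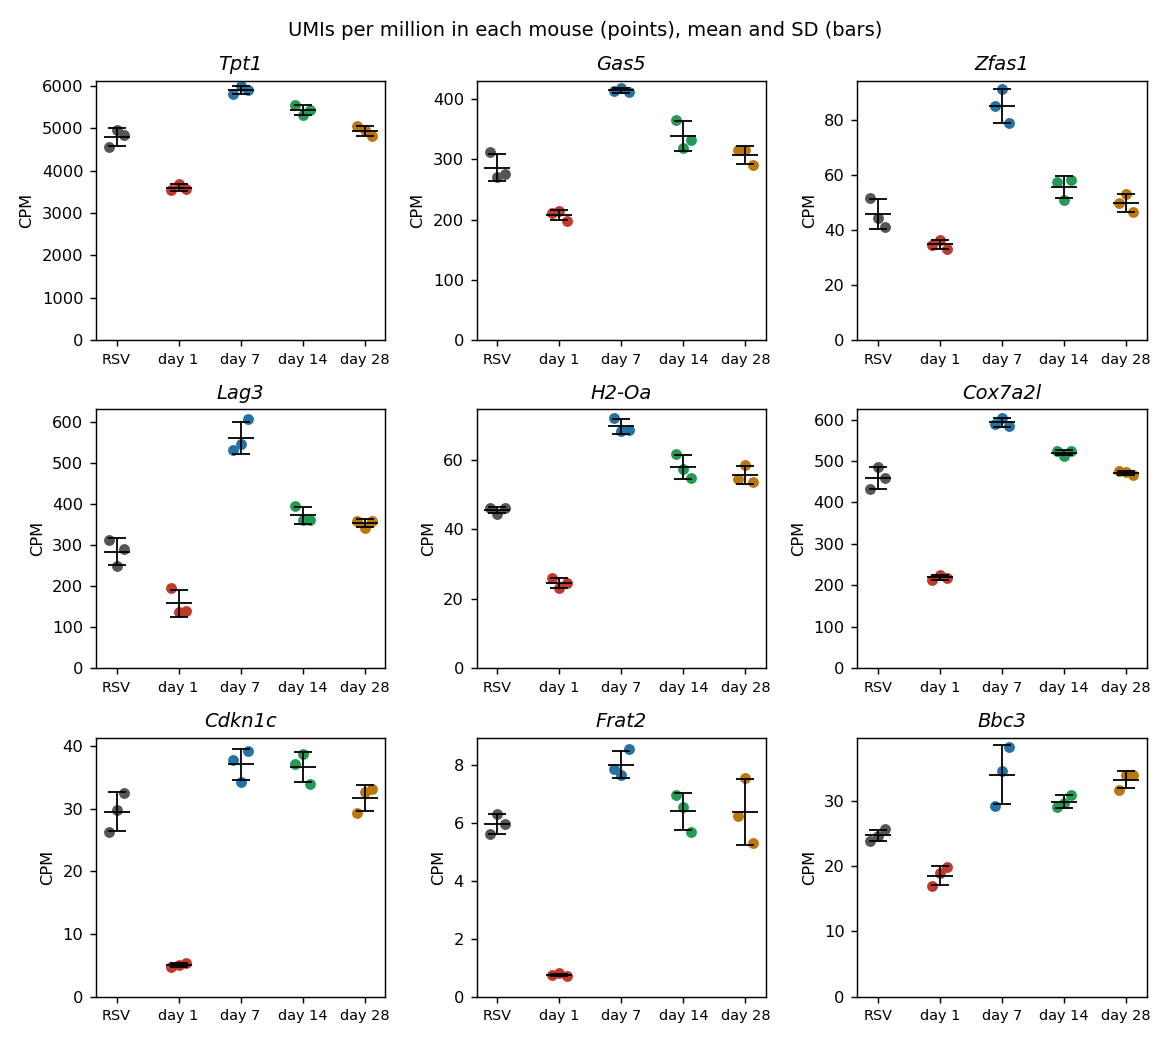
CPM of 9 of the genes (panels) in each mouse, with the group on the horizontal axis. Points are mice, the long bar is the mean and the error bars are 1 SD (n = 3). All 9 genes had a lower mean at day 28 than at day 7, and a high day 7 level was part of their choice. Cdkn1c and Frat2 had the lowest day 1 values relative to ATV:RSV, and Bbc3 stayed above ATV:RSV at day 28.

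Immune receptors, ligands and myeloid proteins numbered 9. Lag3 (chr6:124904361-124911705, minus strand), an inhibitory receptor of T cells that binds MHC class II and is also made by microglia, had the second largest day 7 difference of the 39, 0.98 log2 units. It was at 313, 249 and 289.9 CPM in the ATV:RSV mice, 197, 138 and 139.7 at day 1, 532, 546 and 607 at day 7, 397, 362 and 361 at day 14 and 359, 342 and 359 at day 28. No day 7 mouse overlapped another group, and all day 14 and day 28 mice lay above all ATV:RSV mice. At day 7, where Lag3 was highest, the T or NK markers summed to 38.7 to 55.8 CPM, and at day 1, where it was lowest, to 62.2 to 68.6. Day 14 had 4.26 to 5.20 CPM of these markers and ATV:RSV 2.20 to 42.2, and their part in the Lag3 level was not tested.

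H2-Oa (chr17:34092340-34095234, plus strand) encodes the alpha chain of H2-O, which holds back the peptide loading of MHC class II by H2-M. The gene was at 46.1, 44.6 and 46.2 CPM in the ATV:RSV mice, 25.9, 23.2 and 24.5 at day 1, 72.1, 68.2 and 68.8 at day 7, 61.8, 57.4 and 54.9 at day 14 and 54.7, 58.7 and 53.7 at day 28. ATV:RSV, day 1 and day 7 did not overlap each other, and days 14 and 28 lay between ATV:RSV and day 7. The H2-DMa subunit of H2-M differed from ATV:RSV by -0.38 log2 units at day 1 and 0.02 at day 7, the H2-DMb1 subunit by 0.27 and -0.11, and the class II chaperone Cd74 by 2.42 and 0.16, so H2-DMb1 and Cd74 went the other way from H2-Oa at day 1.

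Lst1 (chr17:35185095-35188439, minus strand), a transmembrane protein of myeloid cells encoded in the MHC region, was at 215, 171 and 170.0 CPM in the ATV:RSV mice, 81.6, 77.1 and 75.2 at day 1, 245, 217 and 243 at day 7, 230.5, 207 and 203 at day 14 and 211, 192 and 229 at day 28. Ramp1 (chr1:91179822-91225196, plus strand), the accessory subunit of the receptor for the neuropeptide CGRP, was at 55.0, 58.2 and 64.4 CPM in the ATV:RSV mice, 18.6, 18.3 and 18.5 at day 1, 70.0, 74.7 and 75.0 at day 7, 64.0, 59.3 and 66.4 at day 14 and 53.1, 67.0 and 54.1 at day 28. Lsp1 (chr7:142460809-142494867, plus strand), an F-actin-binding protein of leukocytes, was at 42.5, 53.3 and 54.5 CPM in the ATV:RSV mice, 16.6, 14.7 and 12.6 at day 1, 56.3, 64.3 and 70.3 at day 7, 64.9, 54.6 and 68.2 at day 14 and 57.9, 51.1 and 55.2 at day 28. In all of Lst1, Ramp1 and Lsp1 the day 1 mice were well below every other mouse, while the day 7 mice exceeded the highest ATV:RSV mouse by far less.

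Tnfsf13, which encodes the B cell ligand APRIL, differed from ATV:RSV by -1.58 log2 units at day 1 and 0.31 at day 7. Siglecf, a sialic acid-binding receptor, differed by -0.78 and 0.36. Ildr2, an immunoglobulin-like domain receptor, differed by -0.50 and 0.56 and was still 0.46 log2 units above ATV:RSV at day 28, the largest day 28 difference of the 39. Its ATV:RSV share of cells lay within the range of S100a9 shares, as given below, so the size of this difference is uncertain. The remaining gene of the group, S100a9, is described last.

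Genes of transcription, the cell cycle and survival numbered 6. Egr2 (chr10:67535475-67542188, plus strand), an immediate early transcription factor, was at 58.3, 58.9 and 43.0 CPM in the ATV:RSV mice, 18.5, 22.98 and 24.8 at day 1, 54.3, 94.7 and 61.4 at day 7, 39.5, 51.2 and 72.6 at day 14 and 65.0, 49.6 and 52.3 at day 28. The day 7 mice overlapped the ATV:RSV mice, and the day 7 mean rested mostly on replicate 2. On a list of 18 immediate early and dissociation genes, 14 were at -0.3 or lower at day 1, while Nr4a1 was at -0.29 and Hspa1a, Hspa1b and Hsp90aa1 were above 0. At day 7 only Nr4a1 of the list was at 0.3 or higher (0.50). The list's medians were -0.80 at day 1 and -0.11 at day 7, beside -0.23 and -0.09 for the 9178 genes.

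Cdkn1c, the cyclin-dependent kinase inhibitor p57, had the largest day 1 difference of the 39 on the log2(CPM + 1) scale, whereas as a ratio of mean CPM Frat2 was lower, at 0.127 against 0.172, on as few as 39 Frat2 UMIs in a day 1 mouse. The day 1 levels of both genes may hold background, as given with the shares of cells, so these ratios and their order are uncertain. The mean of Cdkn1c was 29.5 ± 3.12 CPM in ATV:RSV, 5.08 ± 0.266 at day 1, 37.0 ± 2.49 at day 7, 36.6 ± 2.38 at day 14 and 31.7 ± 2.06 at day 28 (SD, n = 3). Frat2, which binds the kinase GSK3 and favours Wnt signalling, was at 5.99 ± 0.346 CPM in ATV:RSV, 0.761 ± 0.0435 at day 1 and 8.03 ± 0.466 at day 7 (SD, n = 3). Neither gene had overlapping mice between ATV:RSV and day 1 or day 7. Bbc3, the p53 target Puma that promotes apoptosis, was at 24.7 ± 0.885 CPM in ATV:RSV, 18.5 ± 1.45 at day 1, 34.0 ± 4.54 at day 7, 29.9 ± 0.934 at day 14 and 33.2 ± 1.34 at day 28 (SD, n = 3), and it was the only one of the 39 whose day 28 mice all lay above all day 14 mice. Prdm1, the transcription factor Blimp-1, differed from ATV:RSV by -1.10 log2 units at day 1 and 0.36 at day 7. Sfi1, a centrin-binding protein of the centrosome, differed by -1.17 and 0.39 and overlaps Drg1 on the same strand in the annotation.

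Metabolic and other protein-coding genes numbered 10. Cox7a2l (chr17:83501918-83517330, minus strand) has been linked to the assembly of respiratory chain complexes into supercomplexes, a role not measured in these mice. It was at 432, 485 and 459.6 CPM in the ATV:RSV mice, 214, 226 and 218 at day 1, 589.7, 605 and 585 at day 7, 524, 512 and 523 at day 14 and 476, 473 and 466 at day 28. Its day 1 mice were at less than all other mice by a wide margin, and the day 7, day 14 and day 28 ranges did not overlap each other. Cyb561a3 (chr19:10577172-10595961, plus strand), a lysosomal ferric reductase, was at 66.6, 69.7 and 67.3 CPM in the ATV:RSV mice, 55.4, 53.9 and 46.3 at day 1, 79.6, 86.9 and 90.8 at day 7, 79.8, 68.8 and 77.3 at day 14 and 72.0, 77.0 and 75.0 at day 28. All day 28 mice of Cyb561a3 lay above all ATV:RSV mice, while its day 14 mice overlapped them.

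Of the remaining protein-coding genes, Usp35, a deubiquitinase, was at -1.02 and 0.33 log2 units relative to ATV:RSV at day 1 and day 7, and Prkab2, a regulatory subunit of the AMP-activated kinase, was at -0.66 and 0.51. Cpq, a carboxypeptidase, Arrdc4, an alpha-arrestin, Igf2bp2, an RNA-binding protein, Ipcef1, which binds cytohesin exchange factors, and 1700003F12Rik and BC049352, whose roles are not described here, were 0.32 to 0.52 log2 units below ATV:RSV at day 1 and 0.32 to 0.42 above it at day 7. Ipcef1 was also 0.32 above at day 14 and 0.38 at day 28, with no overlap with ATV:RSV on either day.

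The other 8 long noncoding RNAs were 4933421O10Rik, Gm26740, Gm36738, Gm43672, Gm44752, Gm20703, Gm26881 and Gm47754. The most abundant, 4933421O10Rik (chr4:33027142-33031323, minus strand), was at 27.0, 30.5 and 28.2 CPM in the ATV:RSV mice, 23.4, 22.4 and 17.3 at day 1, 38.5, 37.1 and 35.8 at day 7, 36.0, 32.3 and 32.8 at day 14 and 27.6, 33.6 and 32.2 at day 28. Its day 14 mice all lay above the ATV:RSV mice. At day 1 the 8 ranged from -1.12 (Gm20703) to -0.32 (Gm26881), and at day 7 from 0.32 (Gm43672) to 0.56 (Gm47754). In the annotation 17 of the 39 genes overlap a gene on the opposite strand and 4 overlap one on the same strand. Those 4 are Gm26740, Sfi1, Tnfsf13 and Gm47754, whose reads are uncertain at any strand setting of the counting. The strand setting is not given in the sources used here. The reads of genes with an overlap on the opposite strand only are therefore uncertain too, H2-Oa, Gas5, Zfas1, Lsp1, Cyb561a3 and Cdkn1c among them.

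CPM is a share of a mouse's UMIs, and day 1 cells held more UMIs, so the day 1 level depended on the scale. Counted as UMIs per cell, the median of the 9178 genes at day 1 moved to 0.34 and that of the 39 genes to -0.15, with 23 genes below ATV:RSV and 16 above. Every day 1 mouse lay below every ATV:RSV mouse in UMIs per cell for 15 of the 39 genes (14.2% of the 9178) and above for Tpt1 and Bbc3 (56.0% of the 9178). Frat2 had 0.193 times, Cdkn1c 0.261 times, Tnfsf13 0.391 times, Lsp1 0.447 times, Ramp1 0.474 times and 2410006H16Rik 0.520 times as many UMIs per cell at day 1 as in ATV:RSV. For Frat2, Cdkn1c and Tnfsf13 the day 1 level may hold background, as given with the shares of cells, so these ratios are not exact sizes of a change. Tpt1, by contrast, had 29.5 ± 0.853 UMIs per cell in ATV:RSV, 33.6 ± 1.72 at day 1 and 36.1 ± 2.88 at day 7 (SD, n = 3), so its day 1 order against ATV:RSV depended on the scale. The same held for the means of the hosts Gas5 (1.10 times ATV:RSV at day 1), Snhg8 (1.21) and Zfas1 (1.15), whose mice overlapped. Epb41l4aos, at 0.539 times, stayed below. UMIs per cell also follow the depth of a library per cell. At day 7 all 39 genes were higher in UMIs per cell, with a median of 0.36. For 25 of them every day 7 mouse lay above every ATV:RSV mouse (2.28% of the 9178). Depth per cell was similar in these groups, so the day 7 values restate the contrast that chose the genes and are a description. Under TMM scaling, which centres the median gene near 0, all 39 genes were still below ATV:RSV at day 1 with a median of -0.46, and 23 of them still met both limits. The snoRNA hosts Tpt1 (-0.17), Gas5 (-0.22), Snhg8 (-0.08) and Zfas1 (-0.15) then missed the day 1 limit.

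**Figure D3:**
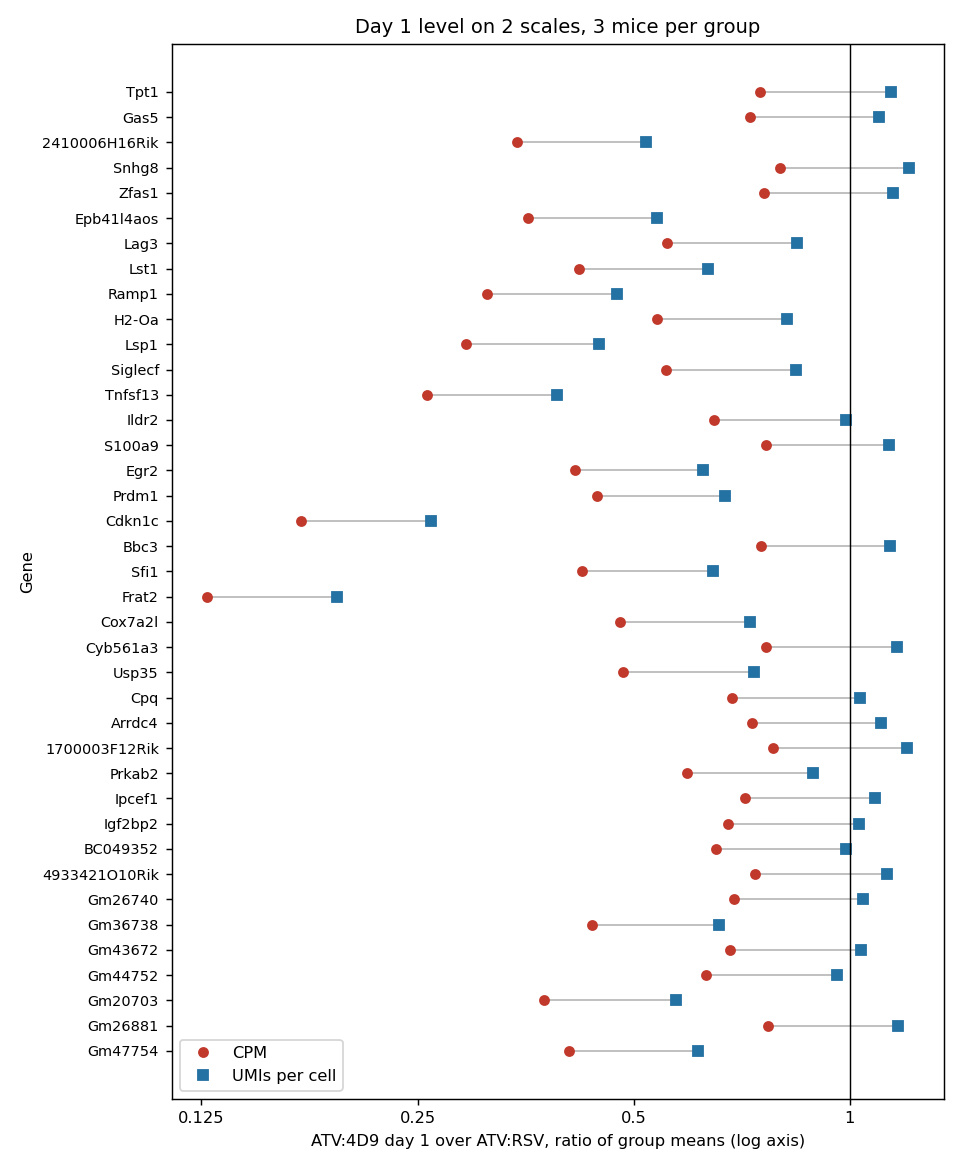
Ratio of the ATV:4D9 day 1 mean to the ATV:RSV mean (log axis, n = 3 mice each) for the 39 genes, as CPM (circles) and as UMIs per cell (squares). All circles lie left of 1, whereas 16 squares lie right of it, and Frat2 and Cdkn1c are far left of 1 on both scales.

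The share of cells with a UMI, after each cell was thinned to 3385 UMIs, restates at equal depth the levels by which the genes were chosen, and is given as a description. The median over the 39 genes of the share of cells with a UMI was 7.29% ± 0.253 in ATV:RSV, 3.56% ± 0.366 at day 1, 9.03% ± 1.56 at day 7, 7.90% ± 0.765 at day 14 and 8.13% ± 0.426 at day 28 (SD, n = 3). Without thinning these medians were 12.5%, 8.88%, 15.4%, 14.1% and 14.5%. Lag3 was detected in 58.2% ± 4.02 of thinned ATV:RSV cells, 39.8% ± 6.35 at day 1 and 81.1% ± 1.13 at day 7 (SD, n = 3). Cdkn1c was detected in 9.06% ± 0.856, 1.78% ± 0.109 and 10.8% ± 0.548 of cells in the same groups. S100a9, a gene of neutrophils and not of microglia, had group means of 0.359% to 1.07% of thinned cells with a UMI and up to 1.82% in a single mouse. The day 1 shares of Frat2 (0.290%), Gm47754 (0.718%), Tnfsf13 (0.924%), Gm20703 (0.980%) and Ildr2 (1.03%) lay below the highest of these group means, and those of BC049352, Igf2bp2, Gm26881, Prkab2, Gm44752 and Cdkn1c (1.53% to 1.78%) below the highest mouse, so these day 1 shares are not read as expression. The highest S100a9 group mean was that of day 7 and the highest mouse was ATV:RSV replicate 3, so neither mark came from day 1. In the day 1 mice S100a9 was at 0.190% to 1.33%, with a mean of 0.663%. Of the genes named, only Frat2 lay below that mean. BC049352, Igf2bp2, Gm26881, Prkab2, Gm44752 and Cdkn1c lay above the highest day 1 mouse in their means. In ATV:RSV the shares of Ildr2 (1.54%) and Gm47754 (1.66%) also lay below the highest S100a9 mouse. S100a9 is only 1 gene, and the background of each of these genes itself was not measured.

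The deposited clusters, which the authors made from the same cells, give the contrasts of the rule in subsets of these cells, as a description. In cluster 0 and in cluster 1, which held nearly all cells of the ATV:RSV and day 7 mice, all 39 genes were higher at day 7 than in ATV:RSV in mean log2(CPM + 1), with medians of 0.39 and 0.43 log2 units. In cluster 2, from 120 to 245 day 7 cells per mouse, the day 7 median was 0.32 with 33 genes above ATV:RSV and 6 below. The median day 1 difference was smaller in clusters 0 and 1 than over all cells. In cluster 0 it was -0.22 with 29 genes below ATV:RSV, from 211 to 383 day 1 cells per mouse, and in cluster 1 it was -0.29 with 32 below, from 180 to 555 cells. In cluster 2, which held most day 1 cells but only 76 to 165 cells of each ATV:RSV mouse, it was -0.72 with 36 below. Lag3 was at 283 ± 35.6 CPM in ATV:RSV cells of cluster 0, 255 ± 54.2 at day 1 and 555 ± 34.6 at day 7 (SD, n = 3), while Cdkn1c in cluster 0 was at 30.8 ± 2.87, 16.1 ± 5.19 and 37.4 ± 3.15. In cluster 2 Lag3 was at 251 ± 49.3 CPM in ATV:RSV cells and 152 ± 30.0 at day 1, and Cdkn1c at 12.1 ± 2.49 and 4.63 ± 0.280 (SD, n = 3).

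The day 14 and day 28 mice entered the rule only through the mean CPM over all 15 mice, and these days were tested with limma-voom over all 14260 genes that passed a filter on low counts, all 39 among them. Day 14 and day 28 against ATV:RSV share the ATV:RSV mice with the rule, so error in the level of these mice enters both the choice of genes and the values at both days, and its size was not measured. Day 28 against day 14 uses none of the mice whose differences chose the genes. At day 14 the median log2 fold change of the 39 genes was 0.26, against -0.00 for all genes, with 38 genes above 0 and only S100a9 below. H2-Oa, Tpt1 and Cox7a2l passed an adjusted p of 0.05 as higher, 3 of 39 (7.69%) against 0.386% of all genes. Of the 9178 genes that the 39 were drawn from, 12 were called higher, H2-Oa, Tpt1 and Cox7a2l included. The same 3 were called by edgeR's quasi-likelihood test, which called 0.414% of all genes, and 10 of the 39 by DESeq2, which called 0.984%. H2-Oa was higher by 0.40 log2 units (SE 0.0605, limma-voom with Benjamini-Hochberg adjusted p = 0.00832), Cox7a2l by 0.24 (SE 0.0432, adjusted p = 0.0203) and Tpt1 by 0.23 (SE 0.0400, adjusted p = 0.0135). Each of them was higher in every day 14 mouse than in every ATV:RSV mouse and in each of the 3 batches. All 3 calls were lost without day 14 replicate 1, where H2-Oa was at 0.34 (adjusted p = 0.0742), Tpt1 at 0.21 (adjusted p = 0.152) and Cox7a2l at 0.22 (adjusted p = 0.209). Without day 14 replicate 2, ATV:RSV replicate 1 or ATV:RSV replicate 3, Tpt1 (limma-voom adjusted p 0.0507 to 0.0752) and Cox7a2l (0.0790 to 0.106) were not called and H2-Oa was. The number of the 39 genes called in these settings was 1, 5 and 1, out of 30, 45 and 16 genes called in all. Cox7a2l was also not called without day 14 replicate 3 (adjusted p = 0.0529).

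Every day 14 mouse lay above every ATV:RSV mouse in CPM for 14 of the 39 genes (35.9%), against 1.74% of the 9178 genes. The 14 were Tpt1, Cox7a2l, Lag3, Gas5, 2410006H16Rik, H2-Oa, Lsp1, Epb41l4aos, 4933421O10Rik, Bbc3, Cdkn1c, Prkab2, Ipcef1 and Gm47754. With the batch number as a block, which pairs the mice, 9 of the 39 genes were called at day 14, against 0.856% of all genes. The added calls were Lag3 (log2 fold change 0.45, limma-voom adjusted p = 0.0267), Gas5 (0.30, adjusted p = 0.00697), 2410006H16Rik (0.29, adjusted p = 0.00986), Zfas1 (0.34, adjusted p = 0.0450), Epb41l4aos (0.33, adjusted p = 0.00595) and Bbc3 (0.33, adjusted p = 0.0140). Of the 6 snoRNA hosts, 5 were thus called under the block, Snhg8 being the exception.

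Day 28 had smaller differences from ATV:RSV in the median. The median log2 fold change of the 39 genes was 0.14 against all genes at 0.00, and no gene passed an adjusted p of 0.05 in limma-voom (0% of all genes, lowest adjusted p 0.173, lowest among the 39 genes 0.261). At an unadjusted p under 0.05, 9 of the 39 genes were higher (23.1%), against 2.08% of all genes and 571 genes in either direction. DESeq2 called 14 genes in all (0.0983%), H2-Oa (0.31, adjusted p = 0.00919) and Bbc3 (0.45, adjusted p = 0.00238) among them, and edgeR called 0. Bbc3 was also called with the batch block (0.45, limma-voom adjusted p = 0.0353), as 1 of 2 genes (0.0140%). Every day 28 mouse lay above every ATV:RSV mouse for 7 of the 39 genes (17.9%), against 2.60% of the 9178: Lag3, Cyb561a3, H2-Oa, Gm26740, Bbc3, Ipcef1 and Ildr2.

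From day 14 to day 28 the 39 genes moved down in the median by a small amount, -0.081 log2 units against 0.00 for all genes, with 27 genes below 0 and 12 above. The median was -0.033 without day 14 replicate 1 and -0.15 without day 14 replicate 3. No gene passed an adjusted p of 0.05 in limma-voom (0% of all genes, lowest adjusted p 0.152, lowest among the 39 genes 0.279). At an unadjusted p under 0.05, 8 of the 39 were lower (20.5%), against 1.49% of all genes and 338 genes in either direction. DESeq2 gave an adjusted p to 713 genes, 5 of the 39 among them, and called 70 (9.82%), Tpt1 (-0.17, adjusted p = 0.000813) and Cox7a2l (-0.18, adjusted p = 0.00167) among them, edgeR called 0, and the fit with the batch block called 19 genes (0.133%) and none of the 39. Every day 28 mouse lay below every day 14 mouse for Tpt1, Cox7a2l, Lag3, Gas5, 2410006H16Rik, Epb41l4aos and Cdkn1c, 7 of 39 (17.9%) against 1.37% of the 9178 genes. The 6 snoRNA hosts had a median of -0.18 and all lay below 0, while the 45 noncoding hosts as a class had a median of 0.01. The other 8 long noncoding RNAs had a median of 0.02 with 2 below 0, and the difference between these groups was not tested.

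**Figure D4:**
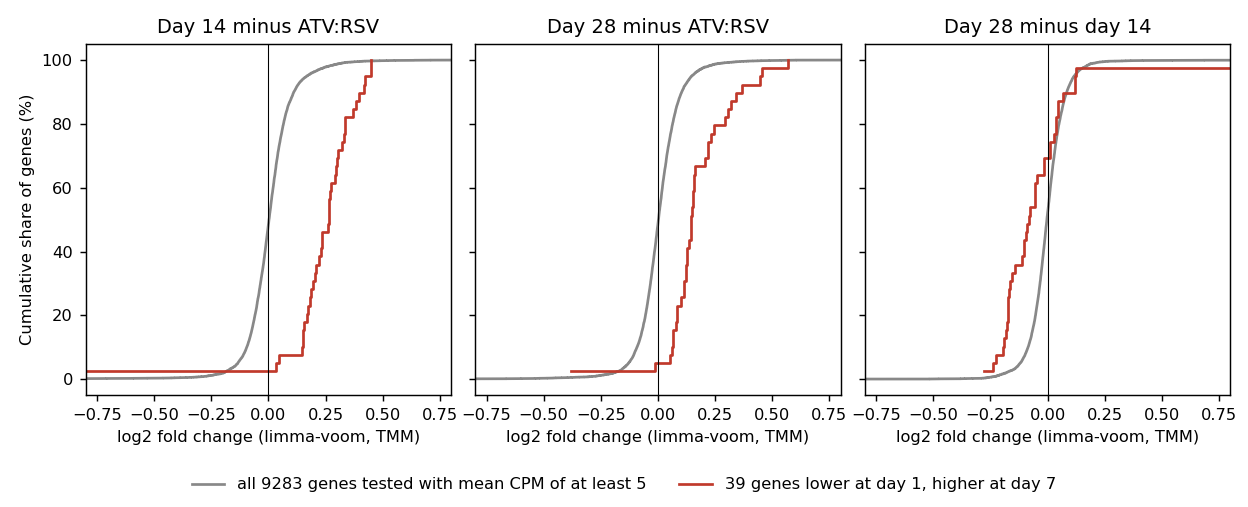
Cumulative share of genes (vertical axis, %) by limma-voom log2 fold change (horizontal axis) for day 14 and day 28 against ATV:RSV and day 28 against day 14, for the 39 genes and for all 9283 tested genes with a mean CPM of at least 5. The curve of the 39 genes lies to the right in the first panel (median 0.26) and less so in the second (0.14), and to the left in the third (-0.081). Differences of S100a9 outside the axis are not drawn.

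Genes with symbols starting with Rpl or Rps, which the rule set aside, were compared because ribosomal protein genes are the best known TOP messages. They were taken by symbol alone, and whether all of them encode ribosomal proteins was not checked. The 91 Rpl and Rps genes had medians of 0.32 log2 units at day 1, where 71 were above 0, and 0.37 at day 7, where 68 were at 0.3 or higher. They thus stood on the other side of ATV:RSV from the 39 genes at day 1 and on the same side at day 7. At day 14 they made up 43 of the 55 genes called higher by limma-voom. Their median log2 fold change was 0.27 at day 14 and 0.08 at day 28, beside 0.29 and 0.12 for the 6 snoRNA hosts, which were chosen for their day 7 level, and 0.07 and 0.09 for the 45 noncoding hosts as a class.

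Pathway lists of microglia, written with earlier results of these data known, held none of the 39 genes, and nothing is read from that. The 10 lists held 145 genes, of which 143 were tested, and 0 of these passed an adjusted p of 0.05 in limma-voom in any of the 3 comparisons. Of all genes, 0.386% were called higher at day 14, and none was called in either comparison of day 28. Nothing is therefore read from the 0 in a list of this size. For comparison, the 9178 genes had medians of -0.23 at day 1 and -0.09 at day 7, with 45.4% at -0.3 or lower at day 1. FoxO pathway and quiescence genes shared the low day 1 level only: 12 of 12 were at -0.3 or lower with a median of -1.18. Their day 7 median was -0.05 with none at 0.3 or higher, against 2.38% of the 9178 genes. The homeostatic microglia list was at medians of -0.73 at day 1 and -0.20 at day 7, the TGF-beta list at -0.54 and -0.09 and the lysosome list at -0.34 and 0.05. MHC class I genes had medians of 0.47 at day 1, where 9 of 11 were above 0, and 0.56 at day 7, where 8 were, and the disease-associated microglia list was at 0.60 and 0.18. MHC class II was at 0.59 and -0.04, complement at 0.10 and -0.01, and lipid efflux and storage at -0.25 and -0.12.

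Promoters, 250 bases before and 50 bases after each RefSeq start, were found for 28 of the 39 genes and searched on both strands for 6 motifs. CACGTG, the E-box bound by MYC and TFE factors, was in 5 (17.9%: Arrdc4, Bbc3, Egr2, Gm36738 and Ildr2), against 12.9% of the genes past the CPM limit and 8.09% of all genes in the table. GGGCGG was in 17 (60.7%, against 71.1% and 38.2%), CCAAT in 10 (35.7%, against 42.7% and 41.1%), TATAAA in 4 (14.3%, against 8.10% and 15.7%), TGANTCA in 2 (7.14%, against 5.63% and 8.97%) and AGGAAGT in 2 (7.14%, against 11.1% and 10.7%). No entry was at hand for the other 11 genes.

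S100a9, a calcium-binding subunit of calprotectin made by neutrophils, met the rule through 1 library. It was at 1.90, 1.85 and 5.27 CPM in the ATV:RSV mice, 0.754, 2.05 and 4.09 at day 1, 1.70, 3.80 and 62.5 at day 7, 0.487, 0.512 and 1.92 at day 14 and 1.69, 2.47 and 1.87 at day 28. Of 3171 S100a9 UMIs in day 7 replicate 3, 2970 came from 1 cell with at least 3 neutrophil markers. Without that cell the mouse was at 3.96 CPM, inside the range of the ATV:RSV mice. The 7 neutrophil markers summed to 157 CPM in day 7 replicate 3 and to at most 10.4 in the other 14 mice. S100a8 (53.1 CPM), Camp (24.8) and Ngp (15.9) were far above all other mice there, Retnlg (0.355) and Cxcr2 (0.414) were within the range of the others, and Mmp9 was at 0.118 against at most 0.101. Without all cells holding at least 3 markers of another cell type, S100a9 (0.10 at day 7) and BC049352 (0.28) no longer met the rule, Fosl2 did, and 37 of the 39 genes remained.

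**Figure D5:**
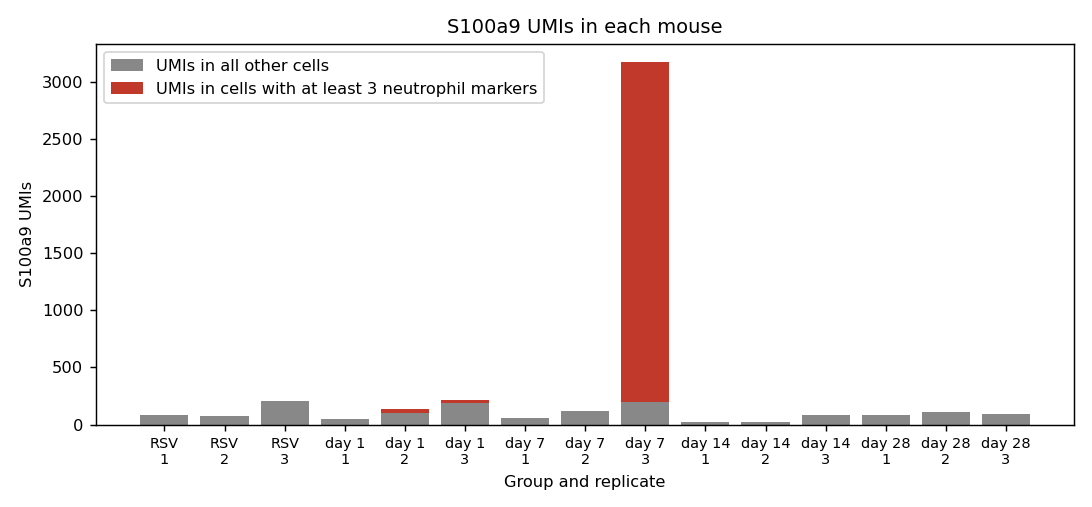
S100a9 UMIs in each of the 15 mice (bars, by group and replicate), split into UMIs from cells with at least 3 neutrophil markers and UMIs from all other cells. The bar of day 7 replicate 3 reaches 3171, of which 2970 came from 1 cell, and no other bar exceeds 218.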

How the data were processed

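Single-cell RNA sequencing libraries (10x 3′ kit with UMIs) of CD45 bead-enriched microglia from 15 mice were analysed, grouped by the antibody and day in the labels, with the batch number as the replicate number. A further control animal named in the labels was not analysed here. The authors mapped reads to mm10 with Cell Ranger (4.0.0 in the submitters' processing notes, later versions in the study's methods) and used Seurat to filter and cluster cells, with filters on cells, and whether intronic reads were counted, not given in the sources used here. The deposited matrix held raw UMI counts per gene and cell. The deposited cell table held UMI counts and genes per cell, the percent of mitochondrial UMIs, the cluster number and the mouse. The cells held 667 to 24995 UMIs and at most 10% mitochondrial UMIs. No doublet caller was run, and whether doublets were removed before deposit is not known. The 2465 cells (2.42%) with at least 3 markers of another cell type, out of 13 marker lists, were left out as an alternative. Pairs of libraries shared 5 to 27 cell barcodes.

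Counts were summed per mouse, filtered (filterByExpr, minimum count 10, minimum total 15), scaled by TMM, and fitted by limma-voom (R 4.3.3 with edgeR 4.0.16 and limma 3.58.1) as 5 group means over 15 mice, with Benjamini-Hochberg adjustment over all genes tested and a threshold of 0.05, after a test on simulated counts. CPM used the library size without a scaling factor, so its log2 differences and the limma-voom log2 fold changes are on different scales. A ± gives the SD over the 3 mice of a group. The genes, roles and lists were chosen with earlier results of these data known, so day 1 and day 7 were not tested. Values in every mouse are given for the 15 genes with the highest mean CPM, for those with the 5 largest day 7 differences and for those called, and all 39 genes are named. Shares of cells were taken after thinning to 3385 UMIs, the 10th percentile, which left out 10204 shallower cells (3.93% to 17.8% per mouse).

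Each batch held all 5 groups per the labels, so the batch number pairs the mice. Across genes, the mean correlation of deviations from the group mean was 0.0443 for mice of 1 batch (30 pairs) and -0.0218 for mice of different batches (60 pairs). No library was a copy of another of its group, since their counts differed by 10.6 to 29.1 times the sampling variance. Coordinates are from GENCODE M21 on mm10, 1-based, and promoter sequences are RefSeq's on GRCm38.p6. Alternatives were other scalings, no filter, edgeR's quasi-likelihood test, DESeq2 1.42.0, the batch block, fewer mice or cells, and other limits of the rule.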

Additional observations from a re-analysis of the deposited data

How the results depend on the processing

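At day 14 against ATV:RSV, limma-voom called 57 genes and 3 of the 39. DESeq2 called 132 and 10, the fit with the batch as replicate block 122 and 9, library size without a scaling factor 19 and 1, and a fit of only the 6 mice compared 0 and 0. Leaving out 1 mouse at a time gave 0 to 52 genes and 0 to 5 of the 39. The median of the 39 was 0.21 with library size alone and 0.21 to 0.28 with 1 mouse left out. H2-Oa lost its call in 2 of 14 alternatives (adjusted p 6.68e-07 to 0.151), Tpt1 in 6 (8.58e-06 to 0.212) and Cox7a2l in 7 (6.04e-05 to 0.219), always with the same sign. At day 28 against ATV:RSV, DESeq2 called 14 genes and 2 of the 39 and the replicate block 2 and 1, against 0 in limma-voom. For day 28 against day 14, DESeq2 called 70 and 2 of the 39, the replicate block 19 and none of the 39, and the fit with no filter on low counts 13 genes, against 0, and the median of the 39 ran from -0.15 to -0.033 with 1 mouse left out.

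The rule gave 14 genes in UMIs per cell, 12 at a limit of 0.4 and 85 at 0.2. It gave 39 genes under TMM (23 shared), 36 under DESeq2 size factors (21 shared), 46 with a pseudocount of 0.1, 55 at a mean CPM of at least 1 and 35 to 44 with 1 mouse left out, with 16 of the 39 present in all 9 such settings. Shares of cells without thinning were 12.5% in ATV:RSV, 8.88% at day 1, 15.4% at day 7, 14.1% at day 14 and 14.5% at day 28. The cause of these changes was not tested. With 3 mice a group, the differences of S100a9 (19 UMIs in its lowest mouse) and Frat2 (39) rest on few molecules.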
